A study of Mus musculus with 13 samples.

Results

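Ramp3 and 4 further genes of the adrenomedullin and calcitonin gene-related peptide receptor system (Ramp1, Ramp2, Calcrl and Adm) were followed in primary mouse embryonic fibroblasts kept at 32°C or 37°C. They are 5 of the 19938 genes measured. Ramp3 was chosen by its rise at 32°C in these same arrays, so its values with temperature and time are a description and carry no test. The other 4 genes were chosen as its partners in the same receptor system, with earlier results of these data known. The cells were commercial primary fibroblasts, grown to partial confluence in 10% serum at 37°C and then moved to mild hypothermia by lowering the incubator to 32°C, or left at 37°C as the control. Arrays were made at 0.5, 1, 2, 4, 8 and 18 h at 32°C (hypothermia, 6 arrays) and at 0, 0.5, 1, 2, 4, 8 and 18 h at 37°C (normothermia, 7 arrays), so that the 0 h array is the start of both series. The RNA of 3 dishes was pooled on each array, and no time point was repeated. A pair of arrays of the same time thus compares 1 pool of dishes at each temperature. The pairs are different hours and not repeats, so an SD over pairs also holds change with time. The p-values measure the spread between these arrays, which may be partly technical.

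Adrenomedullin, the product of Adm, is a vasodilator peptide secreted by many cells, fibroblasts included. It acts on a receptor of class B made of the seven-helix protein calcitonin receptor-like receptor, encoded by Calcrl, together with a receptor activity-modifying protein (RAMP), a single-pass partner that carries the receptor to the cell surface and sets which ligand it prefers. With Ramp1 the pair is the receptor of calcitonin gene-related peptide, and with Ramp2 or Ramp3 it is a receptor of adrenomedullin. Ramp3 is also known to steer the receptor to recycling after uptake. The receptors raise cyclic AMP through the stimulatory G protein.

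The bases just before the genes' annotated starts are shown for Ramp3 and Calcrl, the receptor partners whose arrays at 4, 8 and 18 h at 32°C lay outside the range at 37°C. The sequences are RefSeq's on GRCm38.p6, 5′ to 3′ on the strand of the gene, and end at the last base before the annotated gene. Ramp3 lies on the + strand, and its window is the 223 bases chr11:6658283-6658505. Calcrl lies on the - strand, with the 111 bases chr2:84425406-84425516. Capitals mark matches to the GC box GGGCGG on either strand.
Ramp3: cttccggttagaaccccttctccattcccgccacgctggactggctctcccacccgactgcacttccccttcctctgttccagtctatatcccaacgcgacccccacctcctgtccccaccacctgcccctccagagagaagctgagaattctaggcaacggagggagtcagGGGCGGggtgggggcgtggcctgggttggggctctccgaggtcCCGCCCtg
Calcrl: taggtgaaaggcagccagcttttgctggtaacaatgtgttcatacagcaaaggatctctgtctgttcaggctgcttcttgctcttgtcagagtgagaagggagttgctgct
The Ramp3 window held 2 GC boxes and had 65.0% G and C, and 28.9% of the 32851 RefSeq promoters held the motif in a window of the same length. The Calcrl window held none and had 47.7% G and C, and 11.7% of promoters held the motif in its window length. Also searched on both strands were the cyclic AMP response element TGACGTCA and TGACG, which lies within it, the core ACGTG of the hypoxia response element, the mild cold-responsive element TCCCCGCC and the TATA box core TATAA. None of these was in the Ramp3 or the Calcrl window. In windows of the Ramp3 length, they were found in 1.18%, 15.2%, 14.6%, 3.91% and 19.7% of promoters, in the order named. In the shorter windows of the Calcrl length, the shares were 0.207%, 6.01%, 6.74%, 1.38% and 11.7%. The 250 bases before Adm held 1 GC box and 2 overlapping matches to TATAA. These motifs were in 32.7% and 22.8% of promoters in windows of that length. The 250 bases before Ramp1 held no motif of those searched, and no window of Ramp2 was searched. A match here is only a match of letters.

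The array medians lay between 145 and 150 on the intensity scale, a spread of 0.046 log2. The label of the cells was set beside lists of cell type markers. All 8 fibroblast markers listed, among them Col1a1, Col3a1 and Vim, had mean log2 intensities between 10.2 and 13.8, above the median of 7.54 over all genes. Averaged over these 8 they were between 11.6 and 11.9 on the 32°C arrays and between 11.7 and 11.8 on the 37°C arrays. The markers of endothelium, a main site of Calcrl and Ramp2 in vivo, stood between 5.95 and 6.83, with 0 of 8 above that median, and the epithelial markers were 0 of 3 above it. Of the 6 markers of smooth muscle and pericytes, 5 were above it. Acta2, Cnn1 and Tagln, at 13.6, 12.6 and 12.4, lay within the range of the fibroblast markers, so these lists do not tell the cell types apart. The averaged log2 intensity of the 6 was between 10.4 and 10.5 on the 32°C arrays and between 10.4 and 10.6 on the 37°C arrays. That of the endothelial markers was between 6.27 and 6.42 at 32°C and between 6.26 and 6.39 at 37°C. Of 5 macrophage markers, 1 (Cd68) was above the median of all genes, of 3 lymphatic endothelial markers 1 (Flt4), and of 3 measured neural and glial markers 0. The averaged log2 intensity of the macrophage markers was between 5.91 and 6.19 at 32°C and between 5.88 and 6.002 at 37°C. In this list Cd68 was higher at 32°C in 6 of 6 pairs, with late differences of 0.11, 0.11 and 0.57 log2 at 4, 8 and 18 h, and Csf1r had 0.16, 0.15 and 0.50, while the late means of Ptprc, Adgre1 and Aif1 differed by -0.044, 0.097 and -0.0045 log2. The part of these cells in the results was not tested. None of the markers of the 7 cell types listed passed the test in the comparisons used here. In bulk RNA, fewer cells of a type and less RNA per cell cannot be told apart.

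Ramp3 was higher at 32°C in all 6 pairs, and the gap widened with time. Its log2 intensity at 32°C was 8.23 at 0.5 h, 8.10 at 1 h, 8.51 at 2 h, 9.05 at 4 h, 9.47 at 8 h and 9.46 at 18 h. At 37°C it was 8.18 at 0 h, 7.93 at 0.5 h, 7.97 at 1 h, 8.28 at 2 h, 8.29 at 4 h, 8.28 at 8 h and 8.04 at 18 h. The arrays at 4, 8 and 18 h at 32°C were all above every array at 37°C. The array at 2 h at 32°C was also above all 7, and those at 0.5 and 1 h lay among them. Over all genes, 6.27% had the 3 late arrays at 32°C above all 7 arrays at 37°C. The choice of Ramp3 used this contrast, so nothing is read from it.

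On the linear scale, Ramp3 had intensities of 529, 707 and 704 at 4, 8 and 18 h at 32°C, against 314, 310 and 263 at the same hours at 37°C. The ratio of the pair was 1.23 at 0.5 h, 1.10 at 1 h, 1.18 at 2 h, 1.68 at 4 h, 2.28 at 8 h and 2.68 at 18 h. The mean log2 difference, 32°C minus 37°C, was 0.22 ± 0.079 over the early pairs (0.5, 1 and 2 h; SD, n = 3) and 1.12 ± 0.34 over the late pairs (4, 8 and 18 h; SD, n = 3), which is 1.17-fold and 2.18-fold. The widening was thus carried by the pairs from 4 h on.

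Most of this gap lay in the 32°C series, in which Ramp3 at 18 h was 2.44-fold its level at 0 h, whereas at 37°C it was 0.908-fold. Its slope per step of the time points (from 0 for 0 h to 6 for 18 h) was 0.26 log2 at 32°C (SE 0.035) and 0.022 log2 at 37°C (SE 0.026). The difference grew by 0.21 log2 a step from the common start (SE 0.020). These SEs describe the fits only, and as Ramp3 was chosen by this rise they give no test. Kendall's tau with time was 0.71 at 32°C and 0.29 at 37°C. The rise was not even. A step down of the level occurred between 0.5 and 1 h, and the levels at 8 and 18 h at 32°C differed by 0.0062 log2, less than the residual SD of 0.16 around the line at 37°C.

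Ordered by level, the Ramp3 arrays at 8 and 18 h at 32°C came first, followed by 4 h and then 2 h at 32°C. The gaps to the next lower array were 0.41 log2 at 18 h, 0.53 at 4 h and 0.22 at 2 h. The residual SD is that of single arrays around a line, and a gap between arrays varies more. It is thus a scale for these gaps and no test of them. Below these, 9 arrays of both temperatures followed each other at gaps of at most 0.071 log2, none over the SD. No array at 37°C reached the Ramp3 levels of 2, 4, 8 and 18 h at 32°C, whereas at 0.5 and 1 h the levels at 32°C lay among those at 37°C. Ramp3 was chosen by its rise at 32°C, so nothing is read from this order. At 0.5 and 1 h the level at 32°C was 1.04-fold and 0.952-fold that at 0 h, against 0.845-fold and 0.865-fold at 37°C. At these hours most of the difference at 0.5 h and all of it at 1 h lay in lower levels of the 37°C series.

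**Figure D1:**
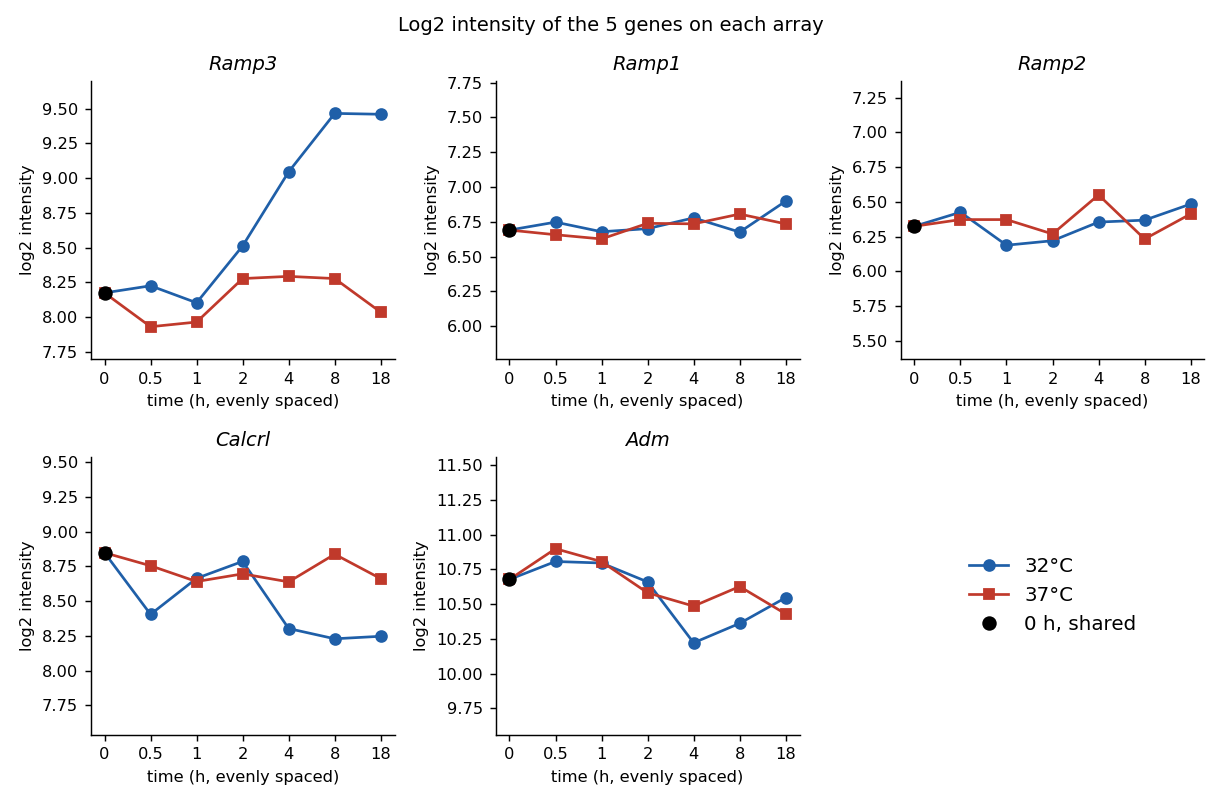
Log2 intensity of Ramp3, Ramp1, Ramp2, Calcrl and Adm on each of the 13 arrays, at 0 to 18 h on an evenly spaced axis, with 32°C in blue circles, 37°C in red squares and the shared 0 h array in black; every panel spans the same range of 2 log2. Ramp3 at 32°C climbs away from its 37°C line to 9.47 at 8 h, Calcrl at 32°C drops under its 37°C line at 4 to 18 h, and Ramp1 and Ramp2 stay within narrow bands.

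Calcrl, which encodes the receptor that Ramp3 accompanies, was lower at 32°C at 4, 8 and 18 h. Its log2 intensity at 32°C was 8.40 at 0.5 h, 8.66 at 1 h, 8.79 at 2 h, 8.30 at 4 h, 8.23 at 8 h and 8.25 at 18 h. At 37°C it was 8.85 at 0 h, 8.75 at 0.5 h, 8.64 at 1 h, 8.70 at 2 h, 8.64 at 4 h, 8.84 at 8 h and 8.66 at 18 h. The 3 late arrays at 32°C were below all 7 arrays at 37°C, as 7.79% of all genes were. The array at 0.5 h at 32°C was also below all 7, and those at 1 and 2 h lay among them.

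The late difference of Calcrl, 32°C minus 37°C, was -0.45 ± 0.14 log2 (SD, n = 3 pairs), that is 0.731-fold. It passed the test over all genes (limma, SE 0.092, adjusted p = 0.0369), as did 2.15% of genes in the lower and 0.802% in the higher direction. It did not pass with a pair left out at 1, 4, 8 or 18 h, where the difference was -0.45, -0.51, -0.38 and -0.47 log2, with adjusted p = 0.0608, 0.0621, 0.236 and 0.122 by limma. It also missed with quantile normalization, with ranks within each array and with all transcript clusters tested (limma, adjusted p = 0.0517, 0.120 and 0.0682). Without the 8 h pair, 0 genes of all those tested passed in either direction. The pair differences were -0.34 at 4 h, -0.61 at 8 h and -0.41 log2 at 18 h, so all 3 late pairs had the same sign.

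The early pairs of Calcrl had differences of -0.35, 0.023 and 0.090 log2 at 0.5, 1 and 2 h, with a mean of -0.079 ± 0.24 (SD, n = 3). This did not pass (limma, adjusted p = 0.878). The late minus the early difference was -0.37 log2 (limma, SE 0.13, adjusted p = 0.328), so the early and late effects were not shown to differ. Over all 6 pairs the mean difference was -0.27 ± 0.27 log2 (SD, n = 6; limma, adjusted p = 0.231), lower in 4 of 6 pairs.

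The divergence of Calcrl from the common start was -0.076 log2 a step (limma, SE 0.019, adjusted p = 0.0614) and missed the threshold. Genes that passed it were 1.17% of all in the higher and 1.66% in the lower direction. The slope of Calcrl was -0.090 log2 a step at 32°C (limma, adjusted p = 0.178) and -0.014 at 37°C (limma, adjusted p = 0.936). At 18 h its level was 0.659-fold that at 0 h at 32°C and 0.879-fold at 37°C. Kendall's tau with time was -0.62 at 32°C (exact permutation test, 2-sided, p = 0.0690, 0.276 adjusted over the 8 tests of the members other than Ramp3) and -0.33 at 37°C (exact p = 0.381, adjusted 0.508).

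In the order of levels, the 4 lowest Calcrl arrays were those at 0.5, 4, 8 and 18 h at 32°C. They were separated from the next array by 0.23 log2, against a residual SD of 0.092 around the line at 37°C. Of these 4, the 0.5 h array stood 0.10 log2 above that of 4 h, just over the SD, and the arrays at 4, 8 and 18 h had gaps under the SD. As for Ramp3, the SD is no test of a gap. Ramp3 and Calcrl thus moved in opposite directions over the late pairs. Their Pearson r over the 13 arrays was -0.80, and over the 7 arrays at 37°C it was 0.21, given as a description of arrays that share time and temperature.

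Adm, the ligand, passed the test in no comparison of temperature or time. Its log2 intensity at 32°C was 10.81, 10.80, 10.66, 10.22, 10.36 and 10.55 at 0.5, 1, 2, 4, 8 and 18 h. At 37°C it was 10.68 at 0 h, then 10.90, 10.81, 10.58, 10.49, 10.63 and 10.43 at the same later hours. The series overlapped, with the lowest level at 4 h at 32°C and at 18 h at 37°C.

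The late difference of Adm, 32°C minus 37°C, was -0.14 ± 0.22 log2 (SD, n = 3; limma, SE 0.084, adjusted p = 0.425), with differences of -0.26 at 4 h, -0.27 at 8 h and 0.12 log2 at 18 h. The late difference was -0.074 without the 4 h or the 8 h pair and -0.26 without that at 18 h. The divergence was -0.017 log2 a step (limma, adjusted p = 0.614), and it was -0.0068, -0.0036 and -0.041 without the pair at 4, 8 and 18 h and -0.0018 with a separate term for 32°C. None of these passed. The slope of Adm was -0.066 log2 a step at 32°C (limma, adjusted p = 0.280) and -0.057 at 37°C (limma, adjusted p = 0.828). Tau was -0.52 at 32°C (exact permutation p = 0.136, adjusted 0.363) and -0.62 at 37°C (exact permutation p = 0.0690, adjusted 0.276). The level at 18 h was 0.913-fold that at 0 h at 32°C and 0.842-fold at 37°C.

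Ramp1, which turns Calcrl into the receptor of calcitonin gene-related peptide, stayed between 6.68 and 6.90 log2 at 32°C and between 6.63 and 6.81 at 37°C. The array at 18 h at 32°C was the highest of all. Its late difference, 32°C minus 37°C, was 0.026 ± 0.15 log2 (SD, n = 3; limma, SE 0.071, adjusted p = 0.892), with single pairs of 0.043, -0.13 and 0.16 log2 at 4, 8 and 18 h. Ramp2, the other partner for adrenomedullin, stayed between 6.19 and 6.48 log2 at 32°C and between 6.23 and 6.55 at 37°C, and the groups overlapped. Its late difference was 0.0038 ± 0.18 log2 (SD, n = 3; limma, SE 0.079, adjusted p = 0.988).

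No slope of Ramp1 or Ramp2 passed at either temperature. The fitted slopes were 0.021 and 0.019 log2 a step at 32°C and 0.019 and 0.0058 at 37°C for Ramp1 and Ramp2, with limma's adjusted p between 0.554 and 0.984 over these 4. Of all genes, 0.0953% passed in the slope at 32°C in either direction, and 0 passed at 37°C, where limma gave an unadjusted p under 0.05 for 721 genes upwards and 435 downwards. The mean difference over all 6 pairs, which 0.0702% of genes passed in either direction, did not pass for Ramp1, Ramp2, Calcrl or Adm. The mean log2 intensities of Ramp1 (6.73) and Ramp2 (6.35) were below the median of all genes, and no detection calls were used here.

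**Figure D2:**
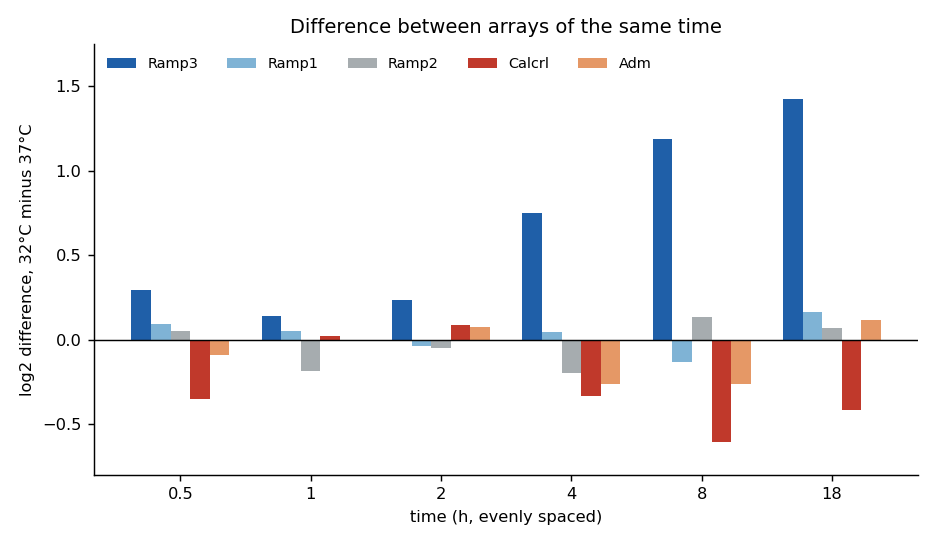
Log2 difference of the pair of arrays at each time, 32°C minus 37°C, for the 5 genes, with 1 bar per gene and pair and times evenly spaced; there are no error bars because each bar is 1 pair. The Ramp3 bars are positive at all 6 times and reach 1.42 at 18 h, the Calcrl bars are negative at 0.5, 4, 8 and 18 h, and the bars of Ramp1, Ramp2 and Adm change sign.

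The wider system was described with lists of genes by role, each given as counts of its measured members and the median of the late difference, 32°C minus 37°C. The median over all genes was 0.0099 log2. Besides Ramp3, which is not tested, 5 of the 84 genes measured passed in the late difference, the divergence or a slope: Calcrl, Creb1, Nr4a1, Adcyap1r1 and Rab4a. This is 5.95%, beside 3.93% of all genes that passed in at least 1 of these comparisons, so the count is near the background and nothing is read from it for the lists as groups. The divergence calls named here depended on the model. With a separate term for 32°C, limma's adjusted p was 0.135 for Adcyap1r1, 0.321 for Creb1, 0.434 for Nr4a1 and 0.630 for Rab4a. In that order, the values with this term were -0.13, -0.098, 0.16 and 0.029 log2 a step. Without it they were -0.065, -0.098, 0.15 and 0.051. With hours as the time scale, limma's adjusted p was 0.114 for Creb1, 0.220 for Nr4a1 and 0.120 for Rab4a. With all transcript clusters tested, Adcyap1r1, Nr4a1 and Rab4a missed (limma, adjusted p = 0.0731, 0.0755 and 0.0548), and with ranks within each array Adcyap1r1 and Creb1 did (limma, adjusted p = 0.0760 and 0.0563).

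Among the ligands, 4 of 5 were measured and 0 passed, with a median late difference of 0.034 log2. Adm2, which encodes intermedin, another ligand of Calcrl with a RAMP, had a late difference of 0.18 ± 0.058 log2 (SD, n = 3). Calcb, a gene of calcitonin gene-related peptide, had 0.030 and Iapp, the gene of amylin, 0.038 log2. Calca had no probe set of its own here.

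Of the 4 receptors, Calcrl alone passed, and the list's median was 0.025 log2. Ackr3, a scavenger receptor that also takes up adrenomedullin, had a late difference of 0.32 ± 0.56 log2 (SD, n = 3), a spread larger than its mean. Calcr, the calcitonin receptor, had 0.17 and Gper1, a membrane receptor of estrogen known to associate with Ramp3, had -0.12 log2. Crcp, an intracellular component of the receptor of calcitonin gene-related peptide, had 0.085 log2 and did not pass.

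The peptide processing and clearance genes gave 5 of 6 measured and 0 passing, with a median of -0.042 log2. Pam, which amidates adrenomedullin, had a late difference of -0.057 log2, Ece1, an endothelin-converting peptidase, 0.14, and Ide, the insulin-degrading enzyme, -0.12 log2.

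Of 14 other receptors that belong to class B or are known partners of RAMPs, 1 passed, and the median was 0.061 log2. This was Adcyap1r1, the receptor of the neuropeptide PACAP, whose divergence was -0.065 log2 a step (limma, SE 0.015, adjusted p = 0.0462). Its late difference was -0.35 ± 0.14 log2 (SD, n = 3; limma, adjusted p = 0.0727), with a mean log2 intensity of 7.76 at 32°C and 8.11 at 37°C. The divergence call was lost without the pair at 2, 4, 8 or 18 h (limma, adjusted p = 0.0818, 0.110, 0.171 and 0.223, with values of -0.064, -0.067, -0.067 and -0.052 log2 a step). Casr and Crhr2, the receptors of calcium and of urocortins, had 0.13 log2 each and Crhr1, the receptor of corticotropin-releasing hormone, 0.11 log2.

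Downstream of the receptor, 19 of 21 genes of G proteins, adenylyl cyclases and protein kinase A were measured and 0 passed. Their median late difference was -0.053 log2, with 13 of 19 below 0, a count with no share over all genes beside it, from which nothing is read. The largest were in Adcy6 (-0.26), Adcy2 (-0.22), both adenylyl cyclases, and Prkar2a (-0.16 log2), a regulatory subunit of protein kinase A. Gnas and Prkaca had no probe set of their own here.

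Of 12 genes of receptor desensitization and recycling, 10 were measured and 1 passed, and the median was -0.026 log2. Grk2 and Nherf1 were not measured. Rab4a, a small GTPase of fast endosomal recycling, was higher at 32°C in 6 of 6 pairs, and its divergence was 0.051 log2 a step (limma, SE 0.011, adjusted p = 0.0389). Its late difference was 0.24 ± 0.057 log2 or 1.18-fold (SD, n = 3; limma, adjusted p = 0.0698), with means of 9.71 at 32°C and 9.48 at 37°C. The divergence call of Rab4a was lost without the pair at 0.5, 2, 4, 8 or 18 h, with values between 0.049 and 0.052 log2 a step and adjusted p (limma) of 0.0520, 0.0685, 0.102, 0.155 and 0.124. Arrb1, which encodes beta-arrestin 1, had a late difference of -0.25 ± 0.044 log2 (SD, n = 3; limma, adjusted p = 0.0856). The kinase genes Grk4 and Grk6 had -0.20 and 0.11 log2.

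Of 15 measured genes of transcription that responds to cyclic AMP, 2 passed, 1 in each direction, and the median late difference was -0.059 log2. Creb1, the transcription factor that binds the cyclic AMP response element, was lower at 32°C in 6 of 6 pairs. Its late difference was -0.55 ± 0.16 log2 or 0.681-fold (SD, n = 3; limma, adjusted p = 0.0111), with means of 9.04 at 32°C and 9.60 at 37°C, and its divergence was -0.098 log2 a step (limma, adjusted p = 0.0179). Without the 8 h pair the late difference of Creb1 was -0.48 log2 and did not pass (limma, adjusted p = 0.102), nor did it with ranks within each array (limma, adjusted p = 0.0598). Its divergence was lost without the pair at 4 or 8 h (-0.089 and -0.082 log2 a step; limma, adjusted p = 0.0587 and 0.101).

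Nr4a1, an immediate early nuclear receptor gene, diverged by 0.15 log2 a step (limma, SE 0.033, adjusted p = 0.0420). Its pairs differed by -0.36, 0.26, 1.02, 1.08, 0.49 and 0.60 log2 at 0.5, 1, 2, 4, 8 and 18 h. The late difference was 0.72 ± 0.32 log2 (SD, n = 3; limma, adjusted p = 0.101), with means of 11.2 at 32°C and 10.5 at 37°C. The fitted slope of Nr4a1 was -0.022 log2 a step at 32°C and -0.18 at 37°C, neither of which passed. The call was lost without the pair at 0.5, 2, 4, 8 or 18 h, with values between 0.12 and 0.18 log2 a step and adjusted p (limma) of 0.0505, 0.0645, 0.110, 0.109 and 0.0840. Further late differences in this list were 0.39 log2 in Pde4b and 0.31 in Pde4d, both phosphodiesterases that degrade cyclic AMP, and 0.36 in Dusp1, a phosphatase of MAP kinases.

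Adm is also known as a target of hypoxia-inducible factor, and 10 other such targets were measured. None passed, and the median late difference was 0.078 log2, with 8 of 10 above 0. Pdk1 had 0.22, Vegfa 0.18 and Bnip3 0.16 log2. The median slope of these targets was -0.065 log2 a step at 32°C and -0.055 at 37°C, with 9 of 10 below 0 at each. The medians over all genes were 0.0047 at 32°C and 0.0022 at 37°C. Adm itself had slopes of -0.066 and -0.057, neither of which passed. The shares of all genes with these signs were not counted, so nothing is read from the counts of signs. The 2 series share the 0 h array.

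**Figure D3:**
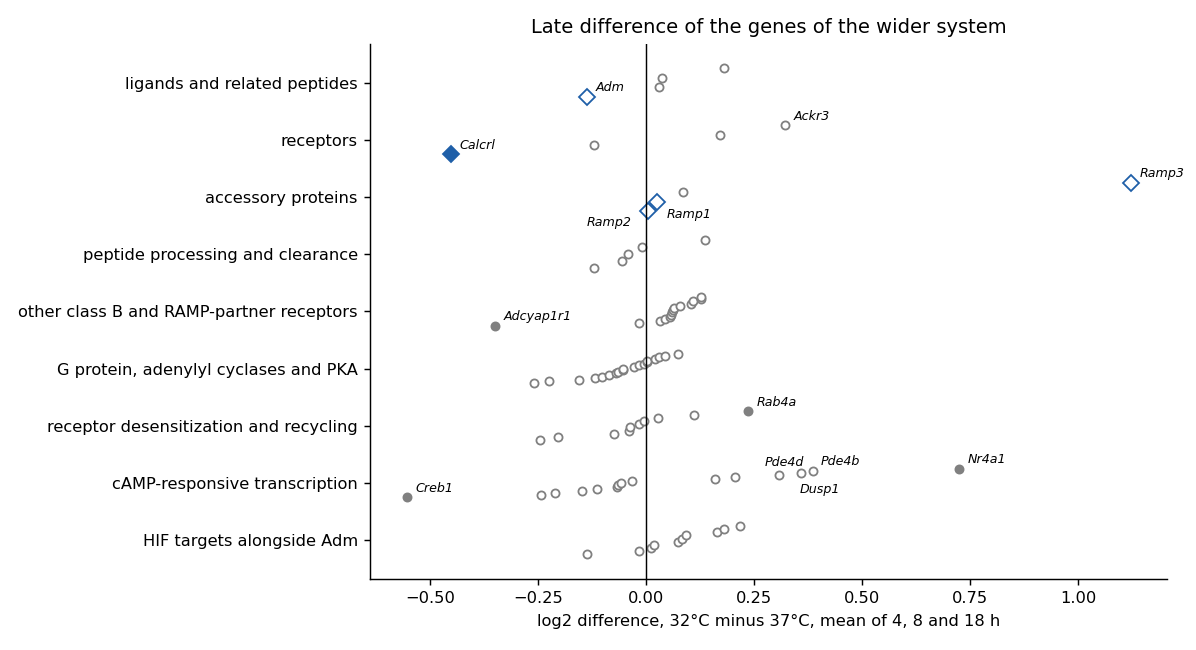
Late log2 difference, 32°C minus 37°C (mean of the pairs at 4, 8 and 18 h), of each measured gene, with 1 point per gene and 1 line of points per list; the 5 genes followed here are blue diamonds and filled points passed in the late difference or the divergence. Ramp3 (not tested, chosen by its rise at 32°C) lies at 1.12, Nr4a1 at 0.72, Calcrl at -0.45 and Creb1 at -0.55, and most other points are within 0.3 of 0.

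The genes most like Ramp3 were taken by the highest Pearson r over the 13 arrays among the 9969 genes whose mean was above the median. They were Txnrd3 (r = 0.98), Ykt6 (0.96), Nqo1, Nrbp1, Wdr45 and Arrdc4 (0.95 each), Ehd4, Tmem128 and Tmem159 (0.94 each) and Lbh (0.93). Over the 7 arrays at 37°C alone, r with Ramp3 was between 0.15 (Lbh) and 0.92 (Ykt6). The r of each was measured on arrays that share time, temperature and hybridization, and is a description. Txnrd3, a thioredoxin and glutathione reductase, had the pattern closest to that of Ramp3, with a smaller range.

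At 18 h at 32°C, Ramp3 was 1.28 log2 above the 0 h array, and of these 10 genes only Nqo1 exceeded it, with 1.60. Nqo1 encodes a quinone reductase. Arrdc4, an arrestin domain gene, was 1.11 above 0 h, and the other 8 were between 0.24 (Nrbp1) and 0.63 (Tmem128). At 18 h at 37°C, Ramp3 was -0.14 log2 from 0 h, and the 10 genes were between -0.086 (Ykt6) and 0.15 (Arrdc4). The late difference of Nqo1 was 1.01 ± 0.60 log2 and that of Arrdc4 0.79 ± 0.17 (SD, n = 3).

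The 5 genes most like Adm by the same measure were Phactr4 (r = 0.94), Gadd45g (0.89), Myc (0.88), Gramd1b (0.88) and Iffo2 (0.87). Gadd45g and Myc are known as growth and stress response genes. Their slopes, like that of Adm, were negative in both series, between -0.090 and -0.058 log2 a step at 32°C and between -0.068 and -0.010 at 37°C.

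**Figure D4:**
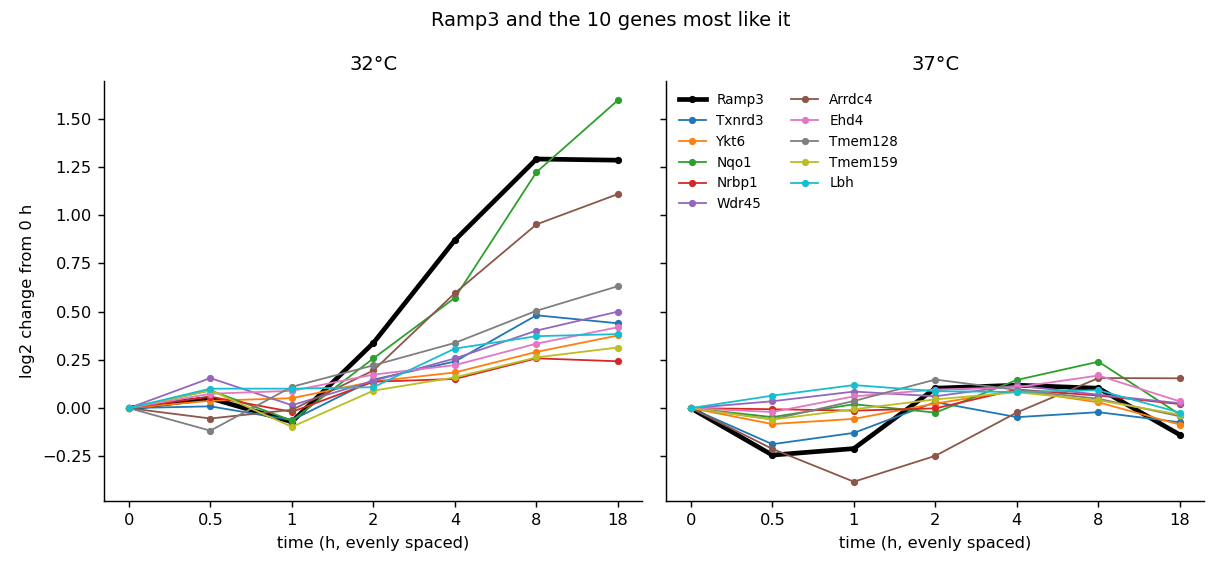
Log2 change from the shared 0 h array in Ramp3 (thick black line) and the 10 genes with the highest Pearson r with it, at 32°C on the left and 37°C on the right, with times evenly spaced and 1 array per point. At 32°C all 11 lines are above 0 from 2 h on and Ramp3 and Nqo1 end highest, at 1.28 and 1.60, and at 37°C the lines end between -0.14 and 0.15.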

How the data were processed

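RNA of primary mouse embryonic fibroblasts, 3 dishes pooled per array, was hybridized to 13 Mouse Gene 1.0 ST arrays. The deposited table holds linear intensity values from 4.24 to 18146.4 for each transcript cluster, as the authors made them. The summarization and normalization of probes are not given in the sources used here. Some values recur exactly between arrays. Values were log2 transformed as deposited. The number of arrays limits the precision. Of 28853 transcript clusters, 21789 carried 1 gene symbol in the platform annotation, giving 19938 genes, each by its brightest cluster. Clusters with several symbols (1621) or not listed (5443) were left out. Each of the 5 genes had 1 cluster of its own, and a further cluster shared by Ramp2 and Malat1 was not used.

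limma 3.58.1 (lmFit and eBayes, R 4.3.3) was fitted over all genes, 2-sided, with Benjamini-Hochberg adjustment and a threshold of 0.05, and its output was tested on simulated data. Every comparison of temperatures was blocked by time. The late and early differences came from 1 fit over the 6 pairs. The divergence is the slope of the pair differences on the order of the time points, forced to 0 at the shared start. It is also off 0 where the pairs differ by the same amount at every hour. Kendall's tau-b was tested exactly. Figures were drawn with matplotlib 3.10.9.

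The members and lists were chosen with earlier results of these data known. Outside the 5 genes, the text names every listed gene that passed in the late difference, the divergence or a slope, up to 3 more per list by the size of the late difference, and the 10 genes most like Ramp3 and 5 most like Adm. The alternatives tried were ranks within each array (scaled from 0 to 100), quantile normalization, an offset of 16, genes above the median only, all clusters, a trended prior, a separate term for 32°C, hours as the time scale and leaving out each time point. The hypoxia and reference RNA experiments were not analysed here. RefSeq promoters were trimmed to the bases before the annotated gene.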

Additional observations from a re-analysis of the deposited data

How the results depend on the processing

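Of 350 values of Ramp1, Ramp2, Calcrl and Adm under alternatives, 325 kept their sign, and none of the 25 that did not was past the threshold. Of 91 for Ramp3, 90 kept it, and its slope at 37°C was -5.5e-04 log2 per 3 h with hours as the time scale. Many of these alternatives could not change a sign. The value stays the same with only genes above the median, with all clusters and with a trended prior. It is also the same for the late difference without an early time and for the divergence without 0 h. The counts of signs kept are thus no measure of robustness. The late difference of Calcrl passed in 5 of 12 alternatives: it missed with quantile normalization (-0.40 log2, adjusted p = 0.0517), relative ranks (-5.52 rank units, adjusted p = 0.120) and all clusters (-0.45, adjusted p = 0.0682), and was between -0.51 and -0.38 with a time left out, in 4 of 6 of which it missed. Its divergence (-0.076) passed in 3 of 15 alternatives: only genes above the median (adjusted p = 0.0418), a trended prior (adjusted p = 0.0476) and without 2 h. It was between -0.087 and -0.059 with a time left out. Among the alternatives it missed were relative ranks (adjusted p = 0.136) and hours as the time scale (adjusted p = 0.114). It was furthest from the threshold, at an adjusted p of 0.519, where the fit gave 32°C its own term (all limma). The divergence of Ramp3 was 0.27 with a separate term for 32°C, 0.29 per 3 h in hours, and between 0.19 and 0.22 with a time left out. The late differences of Ramp1 and Ramp2 were -0.0013 and -0.031 with quantile normalization and -0.027 and -0.61 rank units. With a time left out they were between -0.043 and 0.10 and between -0.062 and 0.10. Their divergences were -0.0029 and 0.026 with a separate term, and 0.0097 in hours for Ramp2. With a time left out they ranged from -0.0072 to 0.019 and from -0.012 to 0.0086. Other values that changed sign with a time left out were early differences of Adm (-0.051 to 0.034), Calcrl (-0.16 to 0.056) and Ramp2 (-0.12 to 0.0022), late minus early differences of Ramp1 (-0.078 to 0.068) and Ramp2 (-0.0021 to 0.16), the difference over all pairs of Ramp2 (-0.061 to 0.0054), and the slopes at 37°C of Calcrl (-0.028 to 0.0019) and Ramp2 (-0.0021 to 0.020). The cause was not tested. Over all genes, 160 passed upwards and 428 downwards in the late difference, against 0 with relative ranks and 0 without 8 h. In the divergence 234 and 331 passed, against 3 and 1 with a separate term. In the slope at 32°C 19 passed, against 103 upwards and 278 downwards in hours. Arrays were paired by time in every comparison of temperatures, and no further block was fitted, since the labels number no replicates. Another cluster of a member was not tried, since each had 1 of its own.

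Single arrays per time, the pooling of dishes and the shared 0 h array limit what can be said of any one time. Ramp1 and Ramp2 had signals below the median of all genes.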
